A study of Mus musculus with 8 samples.

Results

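The miR-34 family comprises the microRNAs miR-34a, miR-34b and miR-34c. It was measured in the liver of mice on a diet that lacks methionine and choline (MCD) and of mice on a normal diet (control). Its members were taken from the mouse miRNA oligonucleotide array by name. A probe was a member if its name, without the species prefix and a final mark of the hairpin arm (*, 3p or 5p), was miR-34a, miR-34b or miR-34c. This gave 6 of the 1135 miRNA probes, 2 from the miR-34a locus (miR-34a and miR-34a*) and 4 from the miR-34b/34c locus (miR-34b-5p, miR-34b-3p, miR-34c and miR-34c*).

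A total of 8 arrays were examined, 4 from MCD livers and 4 from control livers, 1 liver RNA sample per array. The mice were male C57BL/6N, 8 weeks old when feeding began, and neither group received a drug. The labels give 23 weeks of diet for all of them, whereas the methods give a shorter period. The MCD diet is a dietary model of steatohepatitis, in which mice develop a fatty, inflamed and fibrotic liver while they lose weight. The labels give each liver sample its own number but name no animals, so the p-values below rest only on the spread among these 8 samples.

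The miR-34 family is known as a group of direct transcriptional targets of p53, the stress-activated tumour suppressor, a relation worked out in human and mouse cells. Each member is cut from a hairpin whose arms give a guide strand, which is loaded to repress mRNAs, and a passenger strand, marked * or 3p here, which is mostly discarded. The guide strands share a seed, the stretch near the 5′ end that pairs with target mRNAs, and repress genes of the cell cycle and survival, such as Met and Bcl2, together with Sirt1, which encodes a deacetylase that acts on p53. In adult mouse tissues miR-34a is widely found, and miR-34b and miR-34c are best known from lung, testis and other tissues with motile cilia. The miR-449 family of multiciliated epithelium carries the same seed from a different locus.

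The mature sequences are shown because the seed separates the strands of the family from each other. RefSeq (build GRCm38.p6) held 5 of the 6 members and 3 of the 4 miR-449 probes, and miR-34c and miR-449b were not matched. Bases 2 to 8, the seed, are in capitals, and each sequence runs 5′ to 3′.
miR-34a: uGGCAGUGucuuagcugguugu
miR-34b-5p: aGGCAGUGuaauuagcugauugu
miR-449a: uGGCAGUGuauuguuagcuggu
miR-449c: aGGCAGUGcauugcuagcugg
miR-34a*: aAUCAGCAaguauacugcccu
miR-34b-3p: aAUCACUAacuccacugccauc
miR-34c*: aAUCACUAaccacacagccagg

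The seed GGCAGUG stood in 4 of the 1679 mature mouse sequences in the table (0.238%), which were miR-34a, miR-34b-5p, miR-449a and miR-449c. Outside the seed they diverged. The sequences of miR-34a and miR-34b-5p were identical at 19 of 23 aligned positions (82.6%), and those of miR-34a and miR-449a at 17 of 23 (73.9%). The passenger strands carry other seeds. The seed AUCACUA was shared only by miR-34b-3p and miR-34c* among the sequences in the table, and these were identical at 17 of 22 positions (77.3%). The miR-34a* sequence had a seed of its own, AUCAGCA.

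The members come from 2 loci. The Mir34a hairpin lies at chr4:150068454-150068555 and within the span of no other gene in the RefSeq annotation. Mature miR-34a is read from the plus strand at chr4:150068473-150068494 and miR-34a* at chr4:150068517-150068537. The Mir34b hairpin (chr9:51103562-51103645) and the Mir34c hairpin (chr9:51103034-51103110) are 451 bases apart on the minus strand, and both fall within the spans of Btg4 and Hoatz. Mature miR-34b-5p is at chr9:51103610-51103632, miR-34b-3p at chr9:51103574-51103595 and miR-34c* at chr9:51103044-51103065.

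To determine whether the diets differed in the miR-34 family, the intensity of each spot was first compared with the spots that carry no probe. A probe was taken to be above blank where its spot exceeded the mean of the blank spots by 2 SD, a limit between 233 and 248 intensity units on the MCD arrays and between 240 and 261 on the control arrays. A stricter limit came from the negative control spots in the same way and lay between 250 and 289 on the MCD arrays and between 286 and 293 on the control arrays. A probe was tested where it was above blank on at least 4 of the 8 arrays. All 6 members passed and were among the 1076 probes tested. Of these 1076 probes, 110 (10.2%) differed between the diets, 62 higher in MCD (5.76%) and 48 lower (4.46%), with limma on normalized log2 values and Benjamini-Hochberg adjusted p under 0.05. Of the 6 members, 1 passed this test and was higher in MCD (miR-34a), none was lower and 5 did not pass.

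The guide strand miR-34a (mmu-miR-34a on the array), which in mouse and human cells represses Sirt1, was higher in MCD liver. Its spot intensity was 481, 419, 528 and 405 on the MCD arrays, and 345, 314, 310 and 317 on the control arrays. Every MCD array was above every control array, and MCD 3 was the brightest. Intensities averaged 458 ± 57.0 in MCD and 322 ± 15.9 in control (SD, n = 4 each). The spread was wider in MCD. All 8 spots were above both limits, between 1.68 and 2.25 times the blank limit in MCD and between 1.2 and 1.38 times in control.

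**Figure D1:**
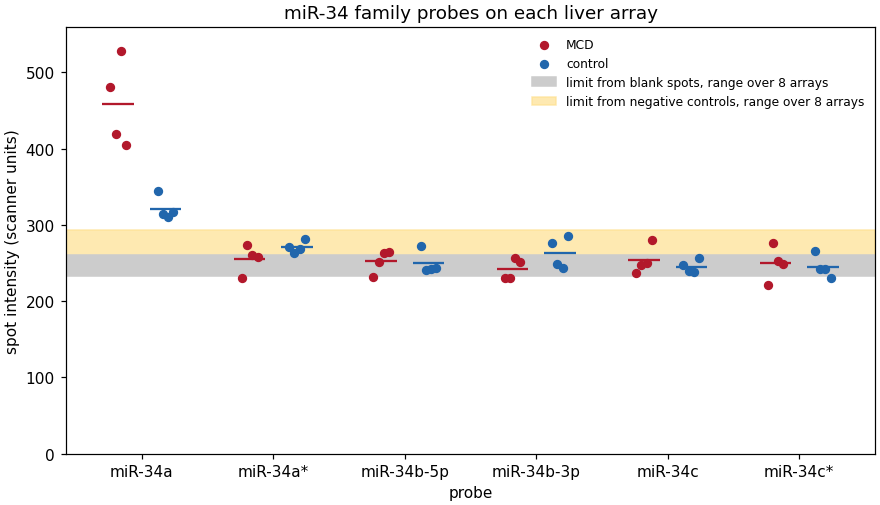
Spot intensity in scanner units (vertical axis) of the 6 miR-34 family probes on the 4 MCD and the 4 control arrays, with a line at each group's mean, the grey band showing the range of the blank limits and the yellow band that of the negative control limits. The miR-34a spots lie between 405 and 528 in MCD and between 310 and 345 in control, whereas every spot of the other 5 probes lies between 221 and 285.

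On the normalized log2 scale, miR-34a was 8.14, 8.12, 8.32 and 8.18 on the MCD arrays, and 7.61, 7.44, 7.49 and 7.5 on the control arrays. The 2 groups did not overlap, as was the case for 8.83% of the tested probes with MCD above control and 6.23% with MCD below. The means were 8.19 ± 0.09 in MCD and 7.51 ± 0.07 in control (SD, n = 4 each). The log2 change, MCD over control, was 0.68 ± 0.09 (SE; 95% interval 0.48 to 0.87), a 1.60-fold higher level in MCD with a limma adjusted p of 0.000325. By size of the rise miR-34a was number 35 of the 1076 probes, and by p number 23. The median log2 change of all tested probes was -0.01, with quartiles at -0.13 and 0.12.

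The size of the miR-34a rise depended on how background and scaling were treated. The correction adds an offset of 50 units before the log, which pulls the changes of dim probes towards 0. With blank subtraction as the only change, the log2 change was 1.01 (limma adjusted p = 0.00863), and with no scaling between arrays as the only change it was 0.84 (adjusted p = 0.000183). With the mean blank intensity taken off and no scaling, the miR-34a signal was 278, 201, 319 and 189 units in MCD, and 120, 88.7, 94.5 and 96.7 units in control. These averaged 247 ± 62.0 in MCD and 100 ± 13.8 in control, a ratio of 2.47. In the authors' processed table, which takes off a blank mean and scales each array to its median, the values were 274, 198, 264 and 179 in MCD, and 117, 101, 87.5 and 95.1 in control, and the log2 change was 1.18 (limma adjusted p = 0.00101). With no background correction at all it was 0.41 (adjusted p = 0.000144). The direction and the call were the same in all of these.

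**Figure D2:**
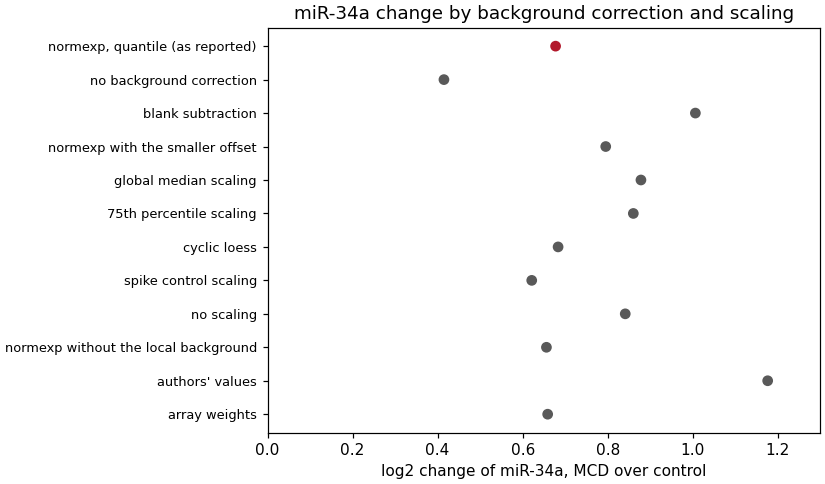
The log2 change of miR-34a, MCD over control (horizontal axis), with the reported processing at the top and 11 other ways of correcting background, scaling or weighting the same 8 arrays below it. The change lies between 0.41 with no background correction and 1.18 on the authors' processed values, and every point is above 0.

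The local background around the miR-34a spot was lower in MCD, at 125 to 141 units, than in control, at 149 to 161 units. The medians over whole arrays differed in the same way, with 123 to 140 units in MCD and 145 to 158 in control. With the local background left out of the correction, an alternative added after this was seen, the log2 change of miR-34a was 0.66 (adjusted p = 0.000351). All MCD samples were in the second position of their slide and all control samples in the first, so position and diet cannot be told apart.

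The opposite strand of the same hairpin, miR-34a*, showed no such difference. Its spot intensity was 231, 274, 260 and 258 on the MCD arrays, and 271, 263, 269 and 282 on the control arrays. The groups overlapped, and MCD 1 was the lowest array. The probe was above blank on 3 of 4 MCD and 4 of 4 control arrays, and above the negative control limit on none of the 8. Normalized values were 6.99 ± 0.12 in MCD and 7.06 ± 0.08 in control (SD, n = 4 each), a log2 change of -0.07 ± 0.09 (SE; 95% interval -0.27 to 0.14; limma adjusted p = 0.753). In the reported processing the upper end of this interval lay below the lower end of the miR-34a interval.

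At the miR-34b/34c locus no probe passed the test, and none of the 4 was above the negative control limit on any array. The guide strand miR-34b-5p (mmu-miR-34b-5p), which shares the seed of miR-34a, had 232, 251, 263 and 264 units in MCD, and 273, 241, 242 and 243 units in control. The highest of the 8 spots was control 1, and the groups overlapped. It was above blank on 3 of 4 MCD and 2 of 4 control arrays. Normalized values averaged 6.93 ± 0.11 in MCD and 6.77 ± 0.14 in control (SD, n = 4 each). The log2 change was 0.16 ± 0.10 (SE; 95% interval -0.06 to 0.39; limma adjusted p = 0.422).

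The other guide strand of the locus, miR-34c (mmu-miR-34c), had 237, 247, 250 and 280 units in MCD, and 248, 239, 238 and 256 units in control. MCD 4 was the highest array and MCD 1 the lowest, so the control values fell within the MCD range. It was above blank on 3 of 4 MCD arrays and on 1 of 4 control arrays. Normalized values averaged 6.91 ± 0.22 in MCD and 6.73 ± 0.09 in control (SD, n = 4 each), a log2 change of 0.18 ± 0.12 (SE; 95% interval -0.07 to 0.44; limma adjusted p = 0.422). In the reported processing, whose offset pulls the changes of dim probes towards 0, the upper ends of both guide intervals lay below the lower end of the miR-34a interval. With blank subtraction the changes were 0.49 for miR-34b-5p (limma adjusted p = 0.375) and 0.68 for miR-34c (adjusted p = 0.237). For miR-34a it was 1.01.

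Of the 2 passenger strands of the locus, miR-34b-3p had 231, 230, 257 and 251 units in MCD, and 276, 249, 244 and 285 units in control. Although the 2 highest arrays were controls, the groups overlapped, and the log2 change was -0.17 ± 0.12 (SE; 95% interval -0.43 to 0.10; limma adjusted p = 0.492). For miR-34c*, which carries the same seed as miR-34b-3p, the spots read 221, 276, 253 and 249 units in MCD, and 266, 242, 242 and 230 units in control. The lowest and the highest spot were both MCD arrays, and the log2 change was 0.09 ± 0.12 (SE; 95% interval -0.16 to 0.34; limma adjusted p = 0.724).

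Together the 5 members other than miR-34a lay between 221 and 280 units in MCD and between 230 and 285 units in control. They were above blank in 14 of 20 MCD spots and 12 of 20 control spots, and above the negative control limit in none. The median change of the 4 probes of the miR-34b/34c locus was 0.13. The 3 positive changes among these 4 probes turned negative when the arrays were scaled to the spike controls, at -0.08 for miR-34b-5p, -0.06 for miR-34c and -0.13 for miR-34c*. That scaling moved the median change of all tested probes to -0.245, and relative to it these 3 values stayed positive. For miR-34a the change was 0.62 under this scaling (limma adjusted p = 0.00887).

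To compare the measured response of the miR-34a locus with that of the miR-34b/34c locus, the difference of the log2 values of a pair of probes was taken on each array and compared between the diets. Such differences do not compare the abundance of 2 miRNAs, since each probe binds with its own strength. The probes set against miR-34a lay near the blank spots and above the negative control limit on no array. The log2 change of so dim a probe is held towards 0 by the background and the offset, so an excess of miR-34a over it compares 2 probes as measured and does not show that the other miRNA changed less. A total of 4 pairs were examined with exact two-sided permutation tests over the 70 splits of the arrays, for which the smallest possible p is 0.0286.

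The difference miR-34a minus miR-34b-5p was 1.29, 1.3, 1.3 and 1.14 on the MCD arrays, and 0.64, 0.73, 0.80 and 0.81 on the control arrays. Every MCD array was above every control array, and the means were 1.26 ± 0.08 in MCD and 0.74 ± 0.08 in control (SD, n = 4 each). As measured, the miR-34a change exceeded that of the miR-34b-5p probe, above blank on 2 of 4 control arrays, by 0.51 on the log2 scale (exact permutation p = 0.0286, 0.0381 after Benjamini-Hochberg adjustment over the 4 pairs). With blank subtraction the excess was 0.52 and missed the threshold (exact p = 0.0571).

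For miR-34a minus miR-34c, the values were 1.25, 1.39, 1.51 and 0.95 in MCD, and 0.91, 0.76, 0.81 and 0.64 in control. The groups were separated by a narrow gap, between MCD 4 and control 1. The measured excess of the miR-34a change over that of the miR-34c probe, above blank on 1 of 4 control arrays, was 0.49 (exact permutation p = 0.0286, adjusted p = 0.0381). This call was lost with blank subtraction (0.33, exact p = 0.314), with the smaller offset (0.54, exact p = 0.0571) and without scaling (0.68, exact p = 0.0571). It was also lost when any 1 of the 4 control arrays was left out, with excesses between 0.47 and 0.54 and an exact p of 0.0571 each time. With 1 array left out the test has only 35 splits, so p moves in coarse steps. The remaining MCD arrays were still all above the remaining control arrays.

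Within the miR-34b/34c locus, miR-34b-5p minus miR-34c averaged 0.02 ± 0.18 in MCD and 0.04 ± 0.18 in control (SD, n = 4 each). These guide strands differed in their change by -0.02 (exact permutation p = 0.83), less than the spread between arrays. Within the miR-34a hairpin, miR-34a minus miR-34a* was 1.28, 0.97, 1.32 and 1.21 in MCD, and 0.62, 0.40, 0.45 and 0.33 in control. The measured change of the guide strand exceeded that of the dim passenger strand probe by 0.74 (exact permutation p = 0.0286, adjusted p = 0.0381). Under each of the 13 alternatives run for this pair the exact p was 0.0286 before adjustment. It was not adjusted over the pairs there, so these values do not show that the adjusted call held. The excess was 0.46 with no background correction and 1.29 with blank subtraction. All 3 pairs that passed hold miR-34a, and their tests share its values.

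**Figure D3:**
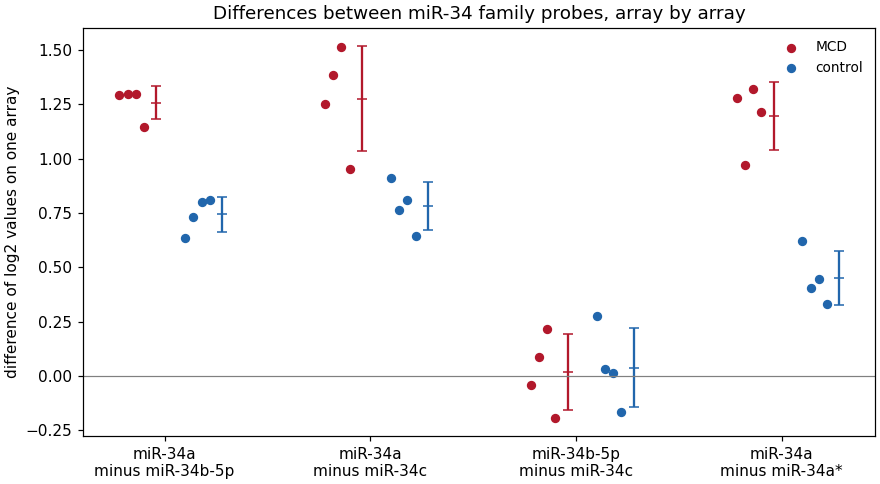
Differences between the log2 values of 2 miR-34 family probes on the same array (vertical axis, log2 units) for the 4 MCD and the 4 control arrays, with the mean and SD of each group beside its points. The 3 differences that hold miR-34a are higher on every MCD array than on any control array, whereas miR-34b-5p minus miR-34c scatters around 0 in both diets.

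The same-seed miR-449 family served as a comparison from a locus within the gene Cdc20b on chromosome 13. All 4 miR-449 probes were tested and none passed. They were above blank in 8 of 16 MCD spots and 10 of 16 control spots, and above the negative control limit in none. The median log2 change was -0.05. The changes were 0.09 ± 0.14 for miR-449a*, 0.08 ± 0.11 for miR-449b and -0.17 ± 0.13 for miR-449a (SE).

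The lowest of the 4 was miR-449c, with 208, 222, 243 and 236 units in MCD, and 261, 264, 257 and 239 units in control. The groups overlapped only through MCD 3, which was brighter than control 4. The log2 change was -0.36 ± 0.12 (SE; 95% interval -0.63 to -0.09), and the limma adjusted p was 0.106. Of the alternatives run, it passed only with the methods' t-test without adjustment and under spike control scaling (-0.56, adjusted p = 0.0209), where the median of all tested probes was -0.245.

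Other miRNAs under p53 were examined as a list of 18 that p53 is known to induce in transcription or processing, mostly in human cells. Of these, 17 were found on the array and all 17 were tested. In MCD liver 2 were higher, 2 were lower and 13 did not pass, where 5.76% of all tested probes were higher and 4.46% lower. The median log2 change was 0.09, against -0.01 for all tested probes. Both that were higher, miR-143 (0.75 ± 0.14, SE; limma adjusted p = 0.0029) and miR-145 (0.78 ± 0.10; adjusted p = 0.000274), come from 1 cluster, which is known from smooth muscle cells and fibroblasts. The 2 that were lower were miR-192 (-0.61 ± 0.17; adjusted p = 0.0367) and miR-194 (-0.65 ± 0.10; adjusted p = 0.00131), which are abundant in hepatocytes and gut epithelium. The miR-192 groups overlapped, with 4225 units on MCD 1 and 3494 on control 3, whereas every MCD array was below every control array for miR-194.

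Set beside miR-34a, the p53-induced list thus held changes of similar size in both directions. The call of miR-192 was lost when any of 6 of the 8 arrays was left out (MCD 1, 2 or 3, or control 1, 2 or 4), with log2 changes between -0.70 and -0.48. It was also lost with blank subtraction (-0.64), with the smaller offset (-0.62) and, once adjusted, by the methods' t-test, at changes as large as in the reported processing. The call of miR-194 was lost with blank subtraction (-0.68, adjusted p = 0.0662). A further member, miR-107, which targets cell cycle genes in human cells, had 962, 850, 992 and 762 units in MCD and 960, 887, 832 and 745 units in control. Its log2 change was 0.05 ± 0.10 (SE; limma adjusted p = 0.835), and the groups overlapped.

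Of 6 miRNAs known to bind the p53 mRNA, 1 was higher and 5 did not pass, where 5.76% of all tested probes were higher. The median log2 change was 0.24, against -0.01 for all tested probes. The one that was higher was miR-125b-5p, a repressor of p53 translation in human and zebrafish cells. Its spots read 1525, 1470, 2325 and 1198 units in MCD, and 1008, 934, 861 and 774 units in control. Every MCD array was brighter than every control array, and the log2 change was 0.96 ± 0.12 (SE; limma adjusted p = 0.000256).

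**Figure D4:**
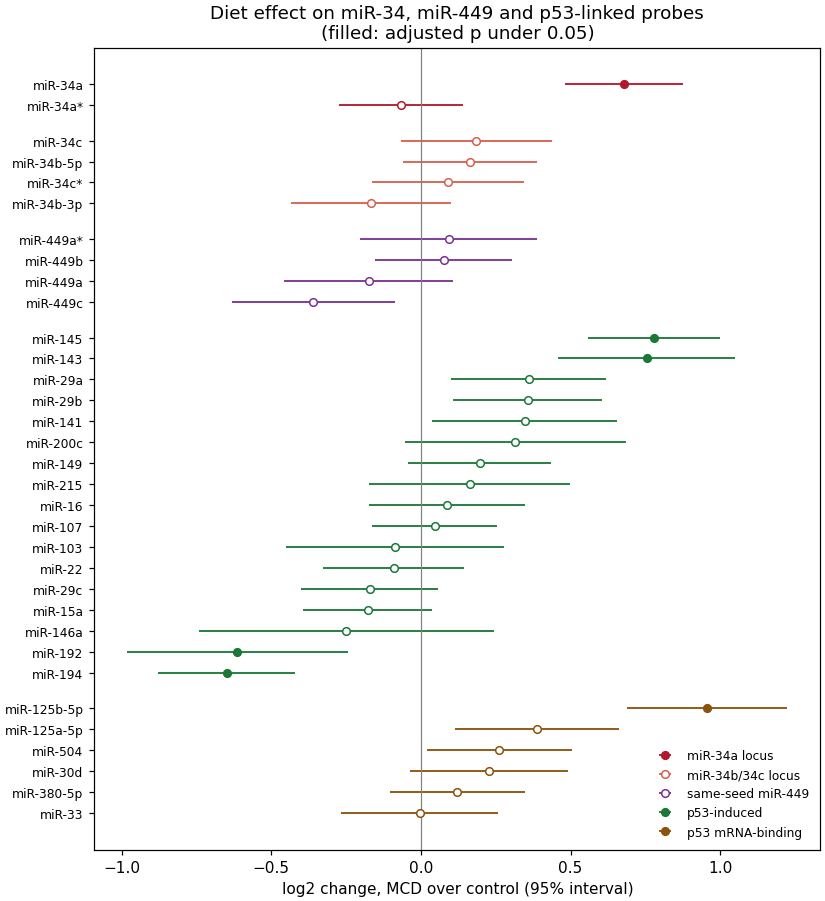
Log2 change, MCD over control (horizontal axis), with its 95% interval for each probe of the miR-34a locus, the miR-34b/34c locus, the miR-449 family and both p53 lists, filled where the limma adjusted p was under 0.05. In the reported processing, whose offset pulls dim probes towards 0, the interval of miR-34a, 0.48 to 0.87, lies to the right of those of the other 5 miR-34 probes. Filled points of the p53-induced list stand on both sides of 0.

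In whole liver, fewer cells of a type and less RNA per cell cannot be told apart. Markers of several cell types, in lists chosen with earlier results of these data known, moved with the diet beside miR-34a. Of all tested probes 5.76% were higher in MCD and 4.46% lower. All 5 hepatocyte miRNAs were lower in MCD, with summed normalized intensities of 21000 to 27800 in MCD and 42400 to 45400 in control. The study had already reported all 5 as lower in MCD, so this count is no separate result. Most of each sum was miR-122. Its normalized log2 value was 14.98 on every control array, because quantile normalization gives probes of the same rank the same value. The miR-122 spots ran from 14535 to 18846 units in MCD and from 30938 to 40551 in control. Of 5 mesenchymal miRNAs 4 were higher (2850 to 4380 in MCD, 1660 to 1870 in control), of 5 biliary epithelial miRNAs 3 were higher (1230 to 2730 in MCD, 573 to 635 in control), and of 5 leukocyte miRNAs 2 were higher (910 to 1300 in MCD, 797 to 863 in control). Sums of dim probes hold much of the offset. Of the biliary probes only miR-200a was above the negative control limit on any control array (3 of 4). Among the leukocyte probes, miR-155 was above it on no control array and miR-142-3p on 1 of 4. The 2 red blood cell miRNAs did not pass and overlapped (669 to 2520 in MCD, 543 to 1720 in control). The part of these cells in the miR-34a result was not tested. The 3 guide strands that mark multiciliated epithelium summed to 272 to 316 in MCD and 316 to 326 in control, and none was above the negative control limit on any array.

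Finally, the tested mouse probes were ranked by how closely their profile over the 8 arrays followed that of miR-34a, by the root mean square difference of log2 values after each probe's own mean was taken off. Among 1040 candidates, with a median difference of 0.383, the nearest were miR-5100 (0.07), miR-15b (0.0991), miR-99b (0.112), miR-27a (0.116) and let-7f (0.126). All 5 were higher in MCD, with log2 changes between 0.63 and 0.83. The ranking includes the difference between the diets, so a similar rise follows from the choice and is no separate result. Of these, miR-15b belongs to the miR-15/16 family of cell cycle repressors, miR-27a represses adipocyte differentiation in cultured cells, and let-7f is one of the let-7 family.

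Not all of these calls held as that of miR-34a did. The miR-5100 probe had the same normalized value on all arrays of a diet, 14.98 in MCD and 14.29 in control, because quantile normalization gives probes of the same rank the same value. Its call was lost on the authors' values and with each other scaling run (spike control, cyclic loess, global median, 75th percentile or none). Under 6 alternatives let-7f no longer passed, with log2 changes between 0.19 and 0.66. Under spike control scaling, which moved the median of all tested probes to -0.245, miR-99b had a change of 0.46 and missed the threshold (adjusted p = 0.0703). The calls of miR-15b and miR-27a were kept under every alternative run for them, as was that of miR-34a under all 26.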

How the data were processed

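Total liver RNA was labelled and hybridised to a mouse miRNA oligonucleotide chip (v. 17.0), and 1 colour was read in the same columns on all 8 arrays. The labels name Hy5, whereas the scanner columns carry the wavelength of the green dye. The deposited scanner files hold, for each of 3136 spots, the intensity and its local background, neither of them corrected by the authors. The authors also deposited a processed intensity table. Its values could be rebuilt as the spot minus a blank mean with 5% trimmed at each end, scaled to a median of 45 per array (largest difference 0.0255%), on a linear scale without centring. The methods describe a 28S scaling. A factor per array would cancel in the scaling to the median, so the rebuild cannot show whether it was applied.

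Scanner intensities of all spots were corrected with normexp (offset 50) and converted to log2, and the 1135 miRNA probes were quantile-normalized, in limma 3.58.1 (R 4.3.3). Groups came from the sample titles. Probes brighter on 4 or more arrays than the blank limit (mean plus 2 SD over 1818 blank spots) were tested with lmFit and eBayes, two-sided, with Benjamini-Hochberg adjustment over 1076 probes. No replicate block was used, since the methods name an unpaired test. The code was tested on simulated data. Precision is limited by the number of arrays. Of the miRNA probes of an array, 42.4% to 91.9% were above the blank limit and 18.0% to 35.6% above that of the 24 negative control spots. Each probe had 1 spot, and no slide number was used as a block because the files used here give none.

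The members and lists were chosen with earlier results of these data known, the reported results of the study among them. Named miRNAs were the miR-34 and miR-449 probes, those of the p53 lists past the threshold with miR-192, miR-194, miR-145 and miR-107, and the 5 mouse probes nearest to miR-34a in profile. Marker lists covered hepatocytes, mesenchymal cells, leukocytes, biliary and multiciliated epithelium and red blood cells, and summed levels are sums of normalized values on the linear scale. miR-192, miR-194, miR-143, miR-145, miR-200c and miR-141 stand in a p53 list and in a marker list, and the 3 miR-449 guides are also the multiciliated list. Sequences and positions were read from RefSeq tables, and identities computed with biopython 1.88. Alternatives covered background correction, scaling, filters, the authors' values, the replicate number as a block, array weights, the methods' t-test and leaving out each array.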

Additional observations from a re-analysis of the deposited data

Results flagged for a closer look

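In 2 of the 20 groups of 4 arrays checked over the miR-34 and miR-449 probes, 1 array stood far from the other 3, by a gap to its neighbour beyond Dixon's 95% critical share of the group's range. Chance gives about 1 such group in 20. For miR-34c, control 4 stood apart from the other control arrays, with a log2 value of 6.86 against 6.70 for the next, a gap of 0.882 of the range. For miR-34b-5p, control 1 stood apart, with 6.97 against 6.71 for the next, a gap of 0.921 of the range. Both probes lay near the blank limit on these arrays, and in neither case was a cause tested.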

How the results depend on the processing

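The miR-34a change kept its direction and its call under all 26 alternatives, with log2 changes between 0.41 and 1.18, and between 0.62 and 0.71 when 1 array was left out. The filters, the methods' t-test and the replicate block leave the log2 change at 0.68, so only the call could differ there. In each of the 26, exactly 1 miR-34 probe passed, but not all members were tested in each. The miR-34b/34c probes were not tested on the authors' values or under the stricter filters, so they could not pass there. Those filters were the negative control limit, 3 SD above blank, and above blank on all arrays. Under the first and last of them miR-34a* was not tested either. With the replicate number as a block, the change of miR-34a was 0.68 (limma adjusted p = 0.00165) and the number of probes past the threshold was 118, against 110 without it. Arrays of the same number deviated together little or not at all (correlations between -0.01 and 0.10). By this correlation MCD 2 and MCD 4 were closest to the control array of their own number, and MCD 1 and MCD 3 to another. Such low values cannot settle whether the number pairs the samples. The block changed no call of the miR-34 and miR-449 probes, the named p53-list probes or the 5 nearest profiles. It was not run for the marker lists or the differences between probes.

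For the differences between probes, the exact p of an alternative was not adjusted over the pairs. The excess of miR-34a over miR-34b-5p was 0.52 with blank subtraction (exact permutation p = 0.0571) and ranged from 0.47 to 0.56 with 1 array left out. The excess over miR-34c lost its call with blank subtraction (0.33), the smaller offset (0.54) and no scaling (0.68). With 1 array left out, where the test has only 35 splits, this excess ranged from 0.40 to 0.60. It lost its call without any 1 of the control arrays. The excess over miR-34a* ranged from 0.68 to 0.82 with 1 array left out, and was 0.46 with no background correction, 1.47 on the authors' values and 1.29 with blank subtraction. The difference between miR-34b-5p and miR-34c was -0.19 with blank subtraction. With 1 array left out it ranged from -0.088 to 0.0574 and changed sign without MCD 1 (0.000581), MCD 4 (0.0495) or control 1 (0.0574).

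Some uncalled probes changed sign. Spike control scaling moved the median of all tested probes to -0.245, and under it the change was -0.0595 for miR-34c, -0.13 for miR-34c*, -0.0794 for miR-34b-5p, -0.13 for miR-449a*, -0.12 for miR-449b and -0.14 for miR-107, all 6 above that median. For miR-107 it was also -0.0501 with cyclic loess and -0.0027 on the authors' values. With 1 array left out, that of miR-34c* ranged from -0.00885 (without MCD 2) to 0.15, and that of miR-449a* from -0.0146 (without control 2) to 0.20. The call of miR-143 was lost with the methods' t-test after adjustment. Of all tested probes, 67 passed with blank subtraction, 216 by the methods' t-test at an unadjusted p under 0.05, 58 after adjustment and 73 without control 4. The cause of these differences was not tested. A slide block was not run, since the files used here give no slide number. Apart from miR-34a, the miR-34 probes lay close to the blank spots, which limits the change that could be detected, and a p that misses the threshold does not show that they did not change.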
